A study of Mus musculus with 4 samples.

Results

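The aryl hydrocarbon receptor (AhR) pathway was described by 7 genes, taken by their symbols from the 24391 gene symbols counted by RNA-seq in primary mouse embryonic fibroblasts (MEFs). They are *Ahr*, *Arnt*, *Ahrr*, *Cyp1a1*, *Cyp1b1*, *Tiparp* and *Aldh1a3*, and 5 of the 7 passed the filter on low counts that left 13668 genes for testing. Primary MEFs had been grown from E13.5 embryos and arrested in quiescence. The labels give the genotype *Phf2* flox/flox, ERCre/+ for all 4 libraries, so WT and *Phf2* KO cells alike carried the floxed alleles and CreERT2 expressed from the *Rosa26* locus. The 2 libraries labelled *Phf2* KO, replicates 1 and 2, are also labelled with Tamoxifen, and the 2 wild-type (WT) libraries are labelled noTamox, without it. The protocol gives 0.5 µM 4-hydroxytamoxifen (4-OHT) for 7 days. It is worded alike for every library, but by the labels only the *Phf2* KO cells were given the drug. Loss of Phf2, Cre activity and 4-OHT, which binds oestrogen receptors and for which binding to AhR has also been described, came together in the *Phf2* KO libraries and cannot be told apart. The genes were chosen by their place in the pathway with their measured log2 difference between *Phf2* KO and WT MEFs known, so that difference is given as a description, with no p-value for a member, and counts of calls beside it carry no evidence.

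AhR is a ligand-activated transcription factor of the bHLH-PAS family. Without ligand it is held in the cytosol by Hsp90 and its co-chaperones, and with ligand it enters the nucleus, pairs with Arnt and binds dioxin response elements near its target genes. *Cyp1a1* and *Cyp1b1* encode the cytochromes P450 by which the pathway is best known. *Ahrr*, a repressor that competes for Arnt, and *Tiparp*, an ADP-ribosyltransferase that curbs AhR, are targets that feed back on the receptor. *Aldh1a3* encodes an enzyme that makes retinoic acid from retinaldehyde.

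The promoters of the target genes are shown because they carry the letters that AhR and Arnt recognise. Each is the RefSeq window from 250 bases before to 50 bases after the start of the gene on GRCm38.p6, 5′ to 3′ on the strand of the gene, and 5 of the 7 genes were found in the RefSeq table (not *Ahr* and *Aldh1a3*). Capitals mark the dioxin response element core GCGTG, or CACGC where it lies on the other strand. The windows are chr9:57697363-57697662 (forward strand) for *Cyp1a1*, chr17:79715012-79715311 (reverse) for *Cyp1b1*, chr13:74292282-74292581 (reverse) for *Ahrr* and chr3:65528197-65528496 (forward) for *Tiparp*.
Cyp1a1: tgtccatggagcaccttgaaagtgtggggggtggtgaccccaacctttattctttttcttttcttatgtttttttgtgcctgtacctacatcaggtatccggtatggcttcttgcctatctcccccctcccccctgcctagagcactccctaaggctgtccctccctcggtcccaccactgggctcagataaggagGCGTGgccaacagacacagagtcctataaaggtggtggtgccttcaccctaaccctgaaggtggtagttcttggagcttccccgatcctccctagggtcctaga
Cyp1b1: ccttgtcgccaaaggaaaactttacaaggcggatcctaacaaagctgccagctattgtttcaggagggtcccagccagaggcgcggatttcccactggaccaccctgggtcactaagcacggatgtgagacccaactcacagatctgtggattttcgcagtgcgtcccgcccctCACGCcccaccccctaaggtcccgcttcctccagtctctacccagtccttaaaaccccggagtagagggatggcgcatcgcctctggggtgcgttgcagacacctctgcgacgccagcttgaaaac
Ahrr: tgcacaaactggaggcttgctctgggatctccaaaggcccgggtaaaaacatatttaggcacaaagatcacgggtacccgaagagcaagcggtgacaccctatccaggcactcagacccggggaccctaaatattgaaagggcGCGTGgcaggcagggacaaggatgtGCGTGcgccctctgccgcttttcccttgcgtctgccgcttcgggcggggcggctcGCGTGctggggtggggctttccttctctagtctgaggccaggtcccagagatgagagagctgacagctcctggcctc
Tiparp: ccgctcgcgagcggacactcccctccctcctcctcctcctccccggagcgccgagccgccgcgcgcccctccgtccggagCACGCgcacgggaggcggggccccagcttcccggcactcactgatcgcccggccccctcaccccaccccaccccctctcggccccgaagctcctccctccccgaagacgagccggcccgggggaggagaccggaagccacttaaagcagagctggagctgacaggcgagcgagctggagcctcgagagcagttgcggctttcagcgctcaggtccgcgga

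The core GCGTG was found, on either strand, in all 5 promoters of the members in the table, and in 32.4% of all 32851 promoters of the same length. *Ahrr* held 3 cores, whose first bases lay 107, 82 and 27 bases before the start, and 3.91% of all promoters held 3 or more. The core lay 54 bases before the start in *Cyp1a1*, 76 in *Cyp1b1*, 170 in *Tiparp* and 29 in *Arnt*. The longer form TNGCGTG, which contains the core, was found once, in *Ahrr*, and in 5.07% of all promoters. GCGTG is also a form of the core that hypoxia-inducible factors recognise, and its other form, ACGTG, was found in 0 of the 5 promoters and in 19.6% of all. The palindromic oestrogen response element, searched on both strands, was found in 0 of the 5 and in 0.07% of all promoters. These are matches of letters within 300 bases, and binding was not measured here.

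**Figure D1:**
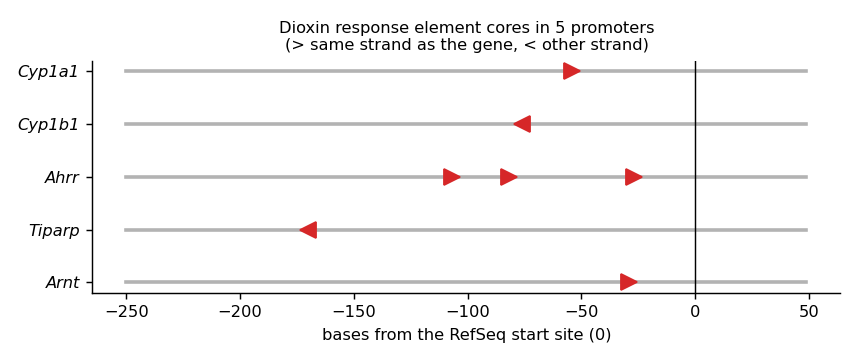
Position of the core GCGTG in the promoters of 5 AhR pathway genes. The x axis gives bases from the RefSeq start site and each triangle is the first base of a match, pointing right on the strand of the gene and left on the other; *Ahrr* holds 3 matches and the other genes 1 each.

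The libraries held between 21094743 and 26094268 counts. Levels are given in CPM, the count relative to the library size after TMM scaling. The detection limit was set at 3 counts, which stood for 0.116 to 0.145 CPM, and intervals and limits cover counting error only. *Phf2*, counted over the whole gene, stood at 138.2 ± 5.11 CPM in WT, against 80.0 ± 13.9 CPM in *Phf2* KO (SD, n = 2 each). This is a level of mRNA and does not measure Phf2 protein. In separate experiments, the study's paper reports that nearly all Phf2 binding peaks on chromatin were lost in *Phf2* KO MEFs. Libraries of one number stood apart from those of the other in both groups. The X-inactivation RNA *Xist* had 10042 (WT) and 8336 (*Phf2* KO) counts in replicates 1, but 3 and 12 in replicates 2. The Y-linked gene *Ddx3y* had 6 and 10 counts in replicates 1, but 1271 and 1295 in replicates 2. All 14 macrophage markers were higher in replicates 1 (edgeR, adjusted p under 0.1), and summed to 3519 (replicate 1) and 766.1 (replicate 2) CPM in WT, against 4021 and 1215 CPM in *Phf2* KO. The 11 fibroblast markers were all detected and summed to 83198 and 86485 CPM in WT and 75076 and 72672 CPM in *Phf2* KO MEFs. Epithelial markers summed to under 1 CPM in each library, *Krt5* being at 0 in 3 of them. The endothelial markers *Pecam1* and *Cdh5* were counted at most 6 times, while *Kdr* and *Vwf* brought the endothelial sum to between 17.6 and 48.7 CPM. The labels do not say which embryos the libraries came from. By the counts of *Xist* and *Ddx3y*, replicates 1 and replicates 2 were of opposite sex and so not of the same embryo, while whether WT and *Phf2* KO cells of one number shared an embryo is not known. Any p-value measures the spread between these libraries.

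At the level of the receptor, *Ahr* and *Arnt* mRNA differed widely, with *Arnt* high and *Ahr* low, and in both genes the *Phf2* KO libraries lay below the WT libraries by a small margin. *Ahr* is found on the reverse strand of chromosome 12 at 36182646 to 36219710 of mm9 and overlaps Gm17436 on the other strand. In the order of replicates 1 and 2, kept from here on, it had 125 and 159 counts in WT, against 80 and 122 in *Phf2* KO libraries. These counts were 5.19 and 6.13 CPM in WT and 3.86 and 5.08 CPM in *Phf2* KO MEFs. The groups did not overlap, but the higher *Phf2* KO library lay just under the lower WT library. The 95% counting interval of WT replicate 1 (4.32 to 6.18 CPM) overlapped that of *Phf2* KO replicate 2 (4.21 to 6.06 CPM). The log2 difference between *Phf2* KO and WT was -0.34 (standard error 0.23). Between libraries of one number it was -0.42 for replicates 1 and -0.27 for replicates 2. In RNA from whole cultures, fewer cells of a type and less RNA per cell cannot be told apart. The log2 difference of *Ahr* moved from -0.55 without *Phf2* KO replicate 2 to -0.16 without *Phf2* KO replicate 1.

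*Arnt* (chromosome 3, 95238310 to 95301162, forward strand) encodes the partner that AhR shares with the hypoxia-inducible factors. It had 2818 and 2898 counts in WT, against 2209 and 2382 in *Phf2* KO libraries, which were 116.9 and 111.7 CPM against 106.6 and 99.1 CPM. Both *Phf2* KO libraries lay below both WT libraries. The log2 difference was -0.15 (standard error 0.083), with -0.13 between replicates 1 and -0.17 between replicates 2, so the mean level in *Phf2* KO MEFs was 90.0% of that in WT.

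The genes that feed back on the receptor were expressed at low levels, with *Tiparp* lower in both *Phf2* KO libraries and *Ahrr* overlapping between the groups. *Tiparp* (chromosome 3, 65332332 to 65359067, forward strand) overlaps 4931440P22Rik on the other strand. It was counted 140 and 120 times in WT and 87 times in each *Phf2* KO library. This was 5.81 and 4.62 CPM in WT and 4.20 and 3.62 CPM in *Phf2* KO MEFs, without overlap between the groups. The log2 difference of -0.42 (standard error 0.22) was the most negative among the 5 members tested. It was -0.46 between replicates 1 and -0.35 between replicates 2, and lay between -0.57 without WT replicate 2 and -0.23 without WT replicate 1. *Ahrr* (chromosome 13, 74348566 to 74429779, reverse strand) had 8 and 13 counts in WT, against 0 and 8 in *Phf2* KO libraries. The levels were 0.332 and 0.501 CPM in WT, against 0 and 0.333 CPM in *Phf2* KO, so the groups overlapped. The 95% counting interval of the count of 0 reached 0.178 CPM, and *Ahrr* did not pass the filter.

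Of the target enzymes, *Cyp1b1* was abundant and *Cyp1a1* was at the limit of detection. *Cyp1b1*, which hydroxylates oestradiol and other small molecules and is expressed in many cells of mesenchymal origin, is found on the reverse strand of chromosome 17 at 80106234 to 80114401 of mm9. It had 5674 and 6956 counts in WT, against 6206 and 7809 in *Phf2* KO libraries. This was 235.4 and 268.1 CPM in WT and 299.5 and 324.8 CPM in *Phf2* KO MEFs. Both *Phf2* KO libraries lay above both WT libraries, and no counting intervals of libraries of different groups overlapped. The mean was 1.24 times higher, with 251.7 ± 23.1 CPM in WT against 312.2 ± 17.9 CPM in *Phf2* KO (SD, n = 2 each). The log2 difference was 0.31 (standard error 0.11), with 0.35 between replicates 1 and 0.28 between replicates 2. Left out in turn, single libraries moved it between 0.23 and 0.41. *Cyp1b1* was thus the 1 member among the 5 tested that was higher in *Phf2* KO MEFs, while its receptor, the partner of the receptor and *Tiparp* were lower.

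*Cyp1a1* (chromosome 9, 57545420 to 57551629, forward strand), the classical AhR-induced enzyme, had 0 and 1 counts in WT, against 2 and 1 in *Phf2* KO libraries. These counts do not exceed the limit of 3, so no difference was detectable at this depth. The upper ends of the 95% counting intervals lay between 0.153 and 0.349 CPM. Within the 300 bases shown, its promoter held 1 core, as did that of the abundant *Cyp1b1* and as 32.4% of all promoters held at least 1. Bases outside these windows were not searched, so the levels are not compared with the number of sites.

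The level of *Aldh1a3* (chromosome 7, 73535778 to 73572403, reverse strand) split the libraries by replicate number, and the WT and *Phf2* KO groups overlapped. It had 74 and 234 counts in WT, against 72 and 180 in *Phf2* KO libraries. This was 3.07 and 9.02 CPM in WT and 3.47 and 7.49 CPM in *Phf2* KO MEFs, so both replicates 1 lay below both replicates 2. The log2 difference between *Phf2* KO and WT was -0.14 (standard error 0.64), with 0.17 between replicates 1 and -0.27 between replicates 2. It turned to 0.84 without WT replicate 2 and to 0.31 without *Phf2* KO replicate 1.

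**Figure D2:**
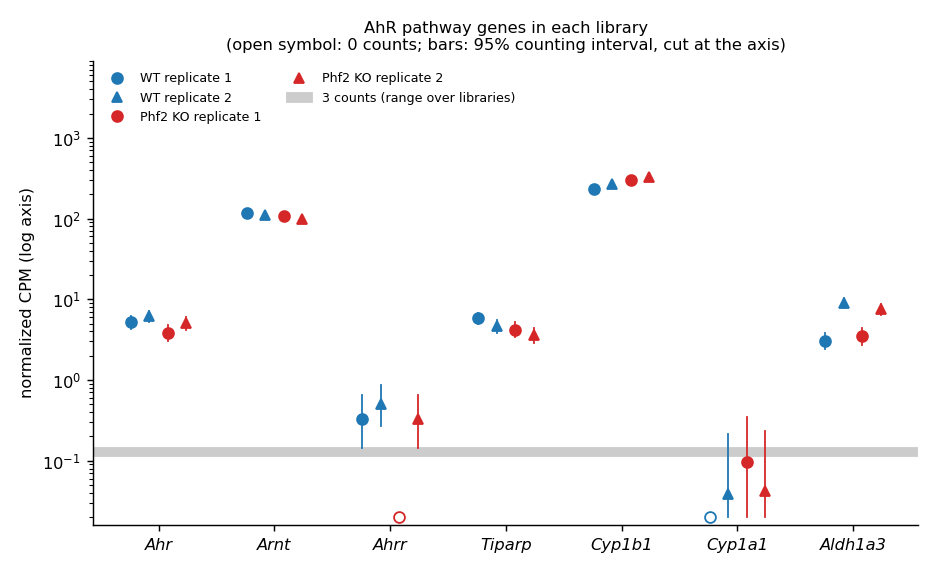
Level of the 7 AhR pathway genes in each library, in normalized CPM on a log axis. Blue symbols are WT and red symbols *Phf2* KO, circles replicates 1 and triangles replicates 2, bars are 95% counting intervals, and the grey band is the worth of 3 counts; *Cyp1b1* lies above 235 CPM in each library while *Cyp1a1* lies at or under the band.

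Over the 5 members tested, both *Phf2* KO libraries lay above both WT libraries in 1 and below in 3, against 15.5% and 18.0% of all genes tested (33.5% for either). The median log2 difference was -0.15 over the 5 members and 0.01 over all genes. By the quasi-likelihood test of edgeR, adjusted over all genes, 0 of the 5 members and 1 gene in all (0.00732%) were called at an adjusted p under 0.1. That gene, *Dkk2*, is no member and was named after its values were seen. *Phf2* itself was not called in this fit (log2 difference -0.79, standard error 0.14), so a gene without a call is not shown to be unchanged. DESeq2 and limma-voom called 0 of the 5 too, and 1 of the 5, *Cyp1b1*, was under an unadjusted 0.05 in edgeR, beside 576 of all 13668 genes. Blocking on replicate number changed the count for the members and for the lists around the pathway, and is given with the alternatives. Nothing is read from these counts, since the members were proposed with this contrast known. Fibroblast markers, of which 0 of 11 were called (2 at an unadjusted p under 0.05 by edgeR), also lay lower in sum in *Phf2* KO MEFs. That sum rests largely on matrix genes, among them *Col1a1* (mean 25321 CPM in WT) and *Col1a2* (21198 CPM). Of the 11 markers, 8 had log2 differences below 0 and 3 above 0 (*Pdgfrb* 0.10, *Thy1* 0.03 and *Vim* 0.02), so the sum does not describe every marker. Both *Phf2* KO libraries lay below both WT libraries in 6 of the 11, the median log2 difference over the 11 was -0.15, and their part in the values of *Ahr*, *Arnt* and *Tiparp* was not tested.

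**Figure D3:**
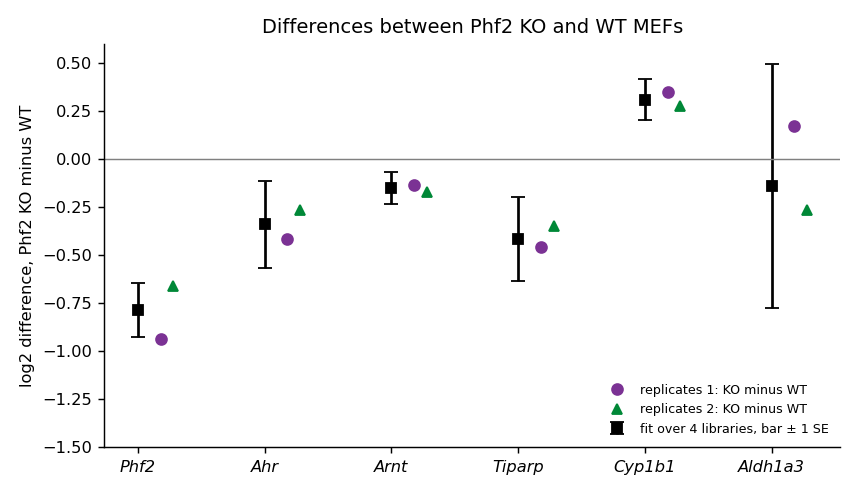
Log2 difference between *Phf2* KO and WT MEFs for *Phf2* and the 5 AhR pathway genes tested. Black squares give the fit over 4 libraries with bars of 1 standard error, circles the difference between replicates 1 and triangles between replicates 2; *Cyp1b1* lies above 0 and *Ahr*, *Arnt* and *Tiparp* below 0 in both pairs, while *Aldh1a3* has 1 point on each side.

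Levels were compared between genes per kilobase of annotated exon (GENCODE M1 on mm9). In WT MEFs *Cyp1b1* stood highest at 48.3 ± 4.44 (SD, n = 2) CPM per kb, followed by *Arnt* at 14.3 ± 0.462 (SD, n = 2) CPM per kb. *Aldh1a3* (1.31 ± 0.911, SD, n = 2), *Tiparp* (1.31 ± 0.210, SD, n = 2) and *Ahr* (0.916 ± 0.108, SD, n = 2) followed. The WT libraries of *Aldh1a3* (0.665 and 1.95 CPM per kb) spanned those of *Tiparp* (1.46 and 1.16) and *Ahr* (0.840 and 0.993), so its place in the order is not settled, while *Tiparp* lay above *Ahr* in each library. *Ahrr* (0.0447 ± 0.0128, SD, n = 2) and *Cyp1a1* (0.00736 ± 0.0104, SD, n = 2) stood lowest. In *Phf2* KO MEFs, *Cyp1b1* stood at 60.0 ± 3.44 (SD, n = 2) and *Arnt* at 12.9 ± 0.665 (SD, n = 2) CPM per kb. *Aldh1a3*, *Tiparp* and *Ahr* lay at 1.19 ± 0.615, 0.981 ± 0.103 and 0.724 ± 0.139 (SD, n = 2) CPM per kb. With the longest transcript in place of all exons, *Arnt* stood at 26.4 CPM per kb in WT, still below *Cyp1b1* at 49.1.

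The rule for the genes did not use the difference between replicates 1 and 2, which was tested with genotype in the fit. *Aldh1a3* was lower in replicates 1, by 1.53 log2 units in WT and 1.09 in *Phf2* KO MEFs. The log2 difference was -1.34 (standard error 0.18), and edgeR gave an adjusted p of 5.62e-12. Its mean was 3.27 CPM in replicates 1 and 8.25 CPM in replicates 2. The other 4 members tested were not called, with log2 differences of -0.31 for *Ahr* (adjusted p = 0.251), -0.15 for *Cyp1b1* (adjusted p = 0.226), 0.09 for *Arnt* (adjusted p = 0.538) and 0.28 for *Tiparp* (adjusted p = 0.338) from the same edgeR test. So 1 of the 5 members was called between the replicate numbers, against 26.2% of all genes. The fit has 1 residual degree of freedom. With the replicate number as its only term, the adjusted p of *Aldh1a3* was 0.00579 by edgeR. Whether libraries of one number shared an embryo is not known, and if they did, these p-values do not measure the spread between embryos. The sex markers and the macrophage markers split the libraries in the same way, the latter with a median log2 difference of 2.06, and their part in the level of *Aldh1a3* was not tested. *Aldh1a1*, which also makes retinoic acid, was lower in replicates 1 (-0.31 log2 units, adjusted p = 0.00527 from edgeR; chosen after its values were seen), and *Aldh1a2* was not called (-0.13, adjusted p = 0.773 from edgeR). Of the 16 other aldehyde dehydrogenase genes tested, *Aldh1a1* was the 1 called lower in replicates 1, while 5 were called higher. Of all genes, 12.6% were called lower and 13.6% higher.

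**Figure D4:**
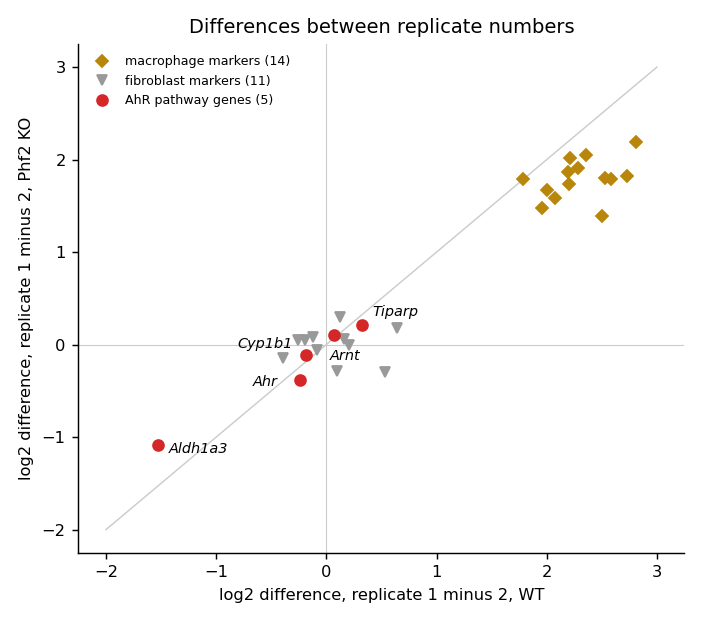
Log2 difference between replicates 1 and 2 in WT (x axis) and in *Phf2* KO MEFs (y axis). Red circles are the 5 AhR pathway genes tested, diamonds 14 macrophage markers and grey triangles 11 fibroblast markers, with the diagonal of equal differences; *Aldh1a3* lies far below 0 and the macrophage markers far above 0 on both axes, while the other members lie near 0.

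Genes around the pathway were described in 6 lists. Of their 85 genes, 72 were tested and 0 were called in either direction by edgeR's quasi-likelihood test, DESeq2 or limma-voom. By edgeR, 3 had an unadjusted p under 0.05, beside 576 of all 13668 genes. They were *Aldh1l2*, *Hif1a* and, named after its values were seen, *Arnt2*. Of the 72, 6 lay above and 14 below in *Phf2* KO MEFs without overlap of the groups, where 15.5% of all genes lay above and 18.0% below, and the median log2 difference was -0.03, beside 0.01 over all genes.

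Over all 13668 genes tested, 7003 log2 differences lay above 0 and 6665 below. Among 19 further AhR target genes, 9 were tested, 0 were called, and 8 had log2 differences below 0, with a median of -0.25. The largest was that of *Ugt1a6a*, a glucuronosyltransferase gene, with 31 and 24 counts in WT, against 8 and 18 in *Phf2* KO libraries (-0.94, standard error 0.46). It shares exons with other genes of the *Ugt1a* cluster, so its reads are uncertain. *Nqo1*, a quinone reductase gene that responds to AhR and to Nrf2, stood at 6.80 and 7.90 CPM in WT and 4.63 and 7.36 CPM in *Phf2* KO MEFs. Its groups overlapped (-0.29, standard error 0.28). *Fgf21*, which encodes a secreted metabolic hormone, had a log2 difference of -0.28 (standard error 0.29). *Cyp1a2* and *Aldh3a1*, both of the classical AhR battery, were counted at most 2 times in any library.

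Of 14 genes for the cytosolic complex, coactivators and corepressors, all were tested and 0 were called, with a median log2 difference of 0.01. *Hsp90aa1*, an Hsp90 gene, stood at 56.0 and 67.2 CPM in WT and 73.7 and 73.5 CPM in *Phf2* KO MEFs (0.26, standard error 0.11). *Nrip1*, which encodes a corepressor of nuclear receptors, stood at 29.1 and 28.6 CPM in WT and 25.1 and 22.7 CPM in *Phf2* KO MEFs (-0.27, standard error 0.11). Of 13 other bHLH-PAS genes, 12 were tested and 0 called, with 9 below 0 and a median of -0.14. *Hif1a*, which encodes a hypoxia-inducible partner of Arnt, stood at 173.0 and 142.4 CPM in WT and 114.7 and 114.4 CPM in *Phf2* KO MEFs (-0.46, standard error 0.12). *Sim1* (-0.47, standard error 0.44) and *Npas1* (-0.37, standard error 0.53) rested on at most 39 counts a library, and their groups overlapped.

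The 8 tested of 9 genes for the redox partners of P450 and for catechol or conjugating enzymes had a median log2 difference of 0.17, with 7 above 0 and 0 called. *Cyb5a*, the gene of an electron donor to P450 enzymes, had overlapping groups (0.25, standard error 0.15). The sulfotransferase gene *Sult1a1* was counted at most 35 times (0.22, standard error 0.29).

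Of 17 other aldehyde dehydrogenase genes, 16 were tested and 0 called, with 8 above and 8 below 0. *Aldh1l2*, the gene of a mitochondrial folate enzyme, stood at 95.6 and 85.1 CPM in WT and 74.6 and 74.4 CPM in *Phf2* KO MEFs (-0.28, standard error 0.091). *Aldh5a1*, whose product degrades succinate semialdehyde, had overlapping groups (-0.33, standard error 0.27). *Aldh1a2*, another gene for retinoic acid synthesis, stood at 2.90 and 3.20 CPM in WT and 2.46 and 2.66 CPM in *Phf2* KO MEFs (-0.25, standard error 0.22). All 13 other genes of the PARP family, to which *Tiparp* belongs, were tested and 0 called, with 6 above and 7 below 0. *Parp11* lay lower without overlap (-0.19, standard error 0.15), while the groups overlapped for *Zc3hav1*, which encodes an antiviral zinc-finger protein (-0.24, standard error 0.29), and for *Parp4* (-0.19, standard error 0.17).

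**Figure D5:**
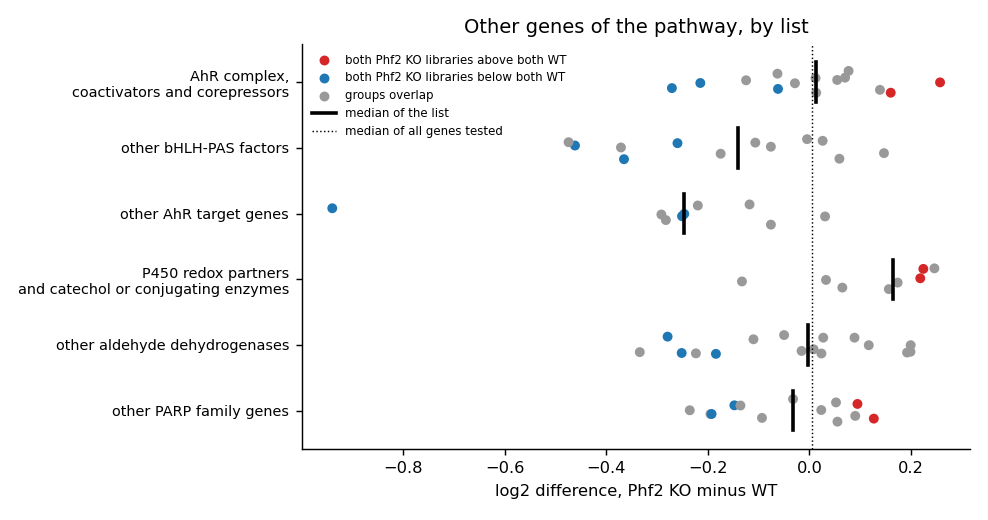
Log2 difference between *Phf2* KO and WT MEFs for the 72 tested genes of 6 lists around the AhR pathway, 1 row a list and 1 point a gene. The medians lie between -0.25 for the AhR target genes and 0.17 for the redox and catechol enzymes, and 0 genes were called.

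The genes most like *Cyp1b1* and *Ahr* in their pattern over the 4 libraries were sought among 12528 genes by the Euclidean distance of centred log2 CPM. For *Cyp1b1* they were *Trit1*, E430018J23Rik, *Relb*, *Ccdc23* and *Irak2*, at distances of 0.0193 to 0.0335, against a median of 0.426 over all candidates. Within a distance of 0.1 lay 99 genes. For *Ahr* they were C430049B03Rik, *Phyhd1*, *Ptges*, *Actg2* and *Cthrc1*, at distances of 0.0521 to 0.0581, and 23 genes lay within 0.1. Over 4 libraries such likeness is a description of order and size alone.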

How the data were processed

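RNA-seq of 4 libraries of quiescent primary MEFs was used, 2 WT and 2 *Phf2* KO, grouped by their labels. Per the labels, Trim Galore was used by the authors for trimming and Bowtie2 for ribosomal reads, and they aligned to mm9 with STAR and counted genes with featureCounts. Second strands were made with dUTP and STAR was run as reverse stranded, while the strand setting of featureCounts is not given in the sources used here, so whether reads of genes that overlap on opposite strands were separated is not known. The authors deposited raw counts, used here as deposited, and a table of their own comparison (mean counts, log2 fold changes, p-values), which was not used. Genes were filtered with filterByExpr (minimum count 10), scaled by TMM and fitted with edgeR 4.0.16 (quasi-likelihood test, R 4.3.3), with Benjamini-Hochberg adjustment over all 13668 genes and a threshold of 0.1. Standard errors were derived from the F statistic. Genotype was the only term of the fit of *Phf2* KO against WT, and the replicate contrast had genotype as a second term. Log2 CPM used a prior count of 2. Counting intervals are exact Poisson intervals at 95%. Replicate libraries differed beyond counting noise (chi-square per degree of freedom 51.0 in WT and 35.1 in *Phf2* KO). Alternatives were DESeq2 1.42.0, limma-voom (limma 3.58.1), other scalings and filters, a replicate block and leaving out each library. The members and lists were chosen with earlier results of these data known. Beside all members and *Phf2*, up to 3 genes a list with the largest absolute log2 difference (after any called) and the 5 genes nearest to *Cyp1b1* and to *Ahr*, with a mean of at least 1 CPM, were named, and 2 of the list genes are not reported here. In the lists, 2 symbols were found under a newer symbol. Positions are from GENCODE M1, and promoters and their build from RefSeq. Scripts were tested on simulated data, where a minimum recovery of changed genes was required only of the fit with the replicate block. Figures were drawn with Matplotlib 3.10.9.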

Additional observations from a re-analysis of the deposited data

How the results depend on the processing

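*Ahr*, *Arnt*, *Cyp1b1* and *Tiparp* kept their direction between *Phf2* KO and WT in all 10 alternatives each, and *Aldh1a3* in 8 of 10, the exceptions being those without WT replicate 2 and without *Phf2* KO replicate 1. Over all genes, edgeR called 0 higher and 1 lower (unadjusted p under 0.05 in 211 and 365). DESeq2 called 10 higher and 56 lower (205 and 259 unadjusted), limma-voom 0 lower (223 and 352 unadjusted), and a threshold of 0.05 left 0 lower. Leaving out each library in turn gave 0 to 0 calls in each direction. No label says that the replicate numbers pair the libraries, but the difference between replicates 1 and 2 correlated across genes between WT and *Phf2* KO (r = 0.774 over 13668 genes, which are not independent replicates). With the replicate number as a block, edgeR called 789 genes higher and 711 lower (11.0% of genes). These held 1 of the 5 members, *Cyp1b1* (log2 difference 0.31), which is no independent evidence, since the genes were proposed with this contrast known. The block called 3 list genes higher (among them *Cyb5a* and *Hsp90aa1*) and 6 lower (*Aldh1l2*, *Arnt2*, *Hif1a*, *Nrip1*, *Slc7a5*, *Zc3hav1*). Between replicate numbers, 1863 genes were higher and 1717 lower in replicates 1, against 1002 and 443 with the replicate number as the only term and 890 and 490 by DESeq2. Scaling by library size alone brought *Cyp1b1* to an adjusted p of 0.0971 in that contrast by edgeR, from 0.226. The causes were not tested. That contrast could not be fitted with genotype without one library, as no residual degree of freedom remains. The depth sets a limit for *Cyp1a1*, for which no fold can be given. It also does so for *Ahrr*, which did not pass the filter and had 0 counts in *Phf2* KO replicate 1.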

Other observations

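Of the 72 tested genes in the lists around the AhR pathway, 20 were higher and 7 lower in replicates 1 than in replicates 2 by edgeR's quasi-likelihood test, beside 13.6% and 12.6% of all genes. The following genes were chosen after their values were seen. *Por*, the gene of the reductase that passes electrons to P450 enzymes, had 5133 and 3231 counts in WT, against 4947 and 3304 in *Phf2* KO libraries. The AhR target gene *Xdh*, which encodes xanthine dehydrogenase, had 604 and 314 counts in WT, against 435 and 263 in *Phf2* KO libraries. *Vav3*, a guanine nucleotide exchange factor gene, had 139 and 37 counts in WT, against 105 and 55 in *Phf2* KO libraries. All 3 were higher in replicates 1 in both groups, by 0.79, 1.00 and 1.56 log2 units (adjusted p from edgeR of 5.49e-19, 1.32e-15 and 1.54e-11), the opposite direction to *Aldh1a3*. The 14 macrophage markers had the same direction, and their part in these values was not tested. If libraries of one number shared an embryo, the p-values given here do not measure the spread between embryos.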
